A study of Mus musculus with 12 samples.

Results

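Coagulation and plasminogen activation genes were followed in M2-like macrophages that had received IFNβ or not. The 8 genes F3, F7, F10, F13a1, Thbd, Plau, Plaur and Serpinb2 were chosen by name from the 56748 genes of the count table, and all 8 passed the filter on low counts. In both IFNβ comparisons the same pattern of calls was found: F7, F10, F13a1, F3, Plau and Plaur were lower, Thbd was higher, and Serpinb2 did not pass the test. F7 and F10 fell by more than 10-fold in both comparisons, whereas Plau remained the most abundant of the 8 transcripts in every condition.

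The cells were bone marrow-derived macrophages (BMDM) from C57BL/6J mice, grown with M-CSF at 20 ng/mL and then driven to an M2-like state by 48 hours of IL4 at 10 ng/mL. All 4 conditions share this treatment and the 72 hours of culture that followed, in 3 libraries each. The untreated control received plain medium. The eGFP supernatant came from YUMM5.2 eGFP cells, a mouse melanoma line carrying a lentiviral, doxycycline (Dox)-driven eGFP gene, and the Ifnb1eGFP supernatant came from YUMM5.2 cells with the same kind of vector carrying Ifnb1 and eGFP. Donor cells had been kept for 72 hours with Dox at 1 μg/mL, so both supernatants came from Dox-treated cells and the untreated control and rIFNβ conditions received no supernatant. Dilution set the Ifnb1eGFP supernatant to 1500 pg/mL of IFNβ, eGFP supernatant was thinned by the same factor, and recombinant IFNβ (rIFNβ) was given at 1500 pg/mL. The series describes 3 mice per condition. The wild-type mice of the study were female. The paper gives their age at purchase, but the age of the donors at bone marrow collection is not given in the sources used here.

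Clotting starts when tissue factor, the membrane protein encoded by F3, binds factor VII (F7). This complex activates factor X (F10), which turns prothrombin into thrombin, and factor XIII (its A chain is encoded by F13a1) cross-links the fibrin that thrombin makes. Thrombomodulin (Thbd) binds thrombin on the cell surface and directs it toward activation of protein C, an anticoagulant enzyme. Fibrin is removed by plasmin, which urokinase (Plau) makes from plasminogen on cells that carry the urokinase receptor (Plaur), and plasminogen activator inhibitor 2 (Serpinb2) inhibits urokinase. Macrophages are known to make several of these proteins outside the liver, and tissue factor on monocytes and macrophages is known to start clotting in inflamed tissue.

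In the GENCODE M39 annotation of GRCm39 the genes lie on 7 chromosomes. F7 (chr8:13076002-13085809, plus strand) and F10 (chr8:13087293-13106676, plus strand) lie close together, with 1483 bases between them. F3 lies at chr3:121516610-121528820 (plus), F13a1 at chr13:37051152-37234277 (minus), Thbd at chr2:148216045-148250201 (minus) and Plau at chr14:20886722-20893453 (plus). Plaur lies at chr7:24161875-24175394 (plus) and Serpinb2 at chr1:107428593-107463208 (plus). F3, F13a1 and Thbd overlap a gene on the opposite strand, and Serpinb2 overlaps Serpinb10 on its own strand. The libraries were stranded, but the strand setting of the counting is not stated, so reads of these overlapping genes cannot be fully told apart.

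Promoter windows from 250 bases before to 50 bases after the start of transcription were taken from RefSeq (GRCm38.p6) for the 6 members with an entry, which had 8 windows in all. The stretches below are from 4 members that were lower with IFNβ. F3 is shown for its AP-1 matches, Plaur for comparison with it, and F7 and F10 because they were among those that fell most and lie next to each other. Capitals mark each match to the AP-1 letters TGANTCA.

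F3, chr3:121723387-121723416, plus strand, bases -150 to -121 from the start: ctgtTGAATCAcggtTGAGTCAcccctttc

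Plaur, chr7:24462233-24462432, plus strand, bases -250 to -51: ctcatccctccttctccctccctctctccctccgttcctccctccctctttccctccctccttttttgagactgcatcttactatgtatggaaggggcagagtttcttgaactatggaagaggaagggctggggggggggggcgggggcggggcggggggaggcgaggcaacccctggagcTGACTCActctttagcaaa

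F7, chr8:13025784-13025983, plus strand, bases -250 to -51: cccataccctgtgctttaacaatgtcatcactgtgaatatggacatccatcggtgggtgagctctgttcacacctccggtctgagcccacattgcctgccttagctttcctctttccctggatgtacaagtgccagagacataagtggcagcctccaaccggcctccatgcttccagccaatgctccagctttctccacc

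F10, chr8:13037058-13037257, plus strand, bases -250 to -51: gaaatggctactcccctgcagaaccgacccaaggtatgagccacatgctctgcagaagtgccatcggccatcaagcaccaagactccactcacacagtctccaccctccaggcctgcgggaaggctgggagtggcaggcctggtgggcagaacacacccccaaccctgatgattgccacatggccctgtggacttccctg

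F3 held 2 AP-1 matches, at bases -146 to -140 and -135 to -129, and Plaur held 1, at bases -69 to -63. Serpinb2, which did not pass the test for IFNβ, also held 1, so that 3 of the 6 members with a window had an AP-1 match, against 8.97% of the 27025 genes with a window. The core of the interferon-stimulated response element, searched on both strands like the other motifs, was found in 0 of the 6 members and in 3.99% of all genes. A GAS match (TTCNNNGAA) was found in Serpinb2 only, against 9.55% of all genes. The same site with 1 more base in its spacer, as STAT6 prefers, was found in 0 members and in 8.01% of all genes. The letters of a TATA box (TATAAA) were found in 2 members and in 15.7% of all genes. In Serpinb2 they lay at bases -29 to -24 of 1 of its windows, and in F3 on the minus strand after the start, at bases 44 to 49. These matches describe letters in these windows and not binding.

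Exposure and cell identity were checked in all 12 libraries. The summed level of 14 interferon-stimulated genes was 160 to 237 CPM (counts per 1000000 of the library's normalized total) in untreated libraries and 12430 to 13900 CPM in the 6 IFNβ-exposed libraries. Among eGFP supernatant libraries it was 1032 CPM in replicate 2 and 171 and 264 CPM in the other two, so that 1 unexposed library stood above the rest. The 8 macrophage markers summed to 14400 to 18800 CPM in unexposed and 9818 to 10720 CPM in exposed libraries, so that the sum was lower with IFNβ, as the 6 members that fell were. Lyz2, the highest of them, was at 9415 CPM in untreated and 12400 CPM in eGFP supernatant libraries, and at 4111 CPM with Ifnb1eGFP supernatant and 3472 CPM with rIFNβ. The mean levels of Itgam and Cd14 were also lower in both exposed conditions, whereas those of Adgre1, Csf1r, Cd68, Fcgr1 and Mertk were not. The 6 markers of IL4 polarization summed to 749 to 1032 CPM, led by Mrc1, with Arg1 near 0. Melanoma markers summed to 0.224 to 0.810 CPM (Tyrp1 at 0 throughout; the highest was Pmel) and lymphoid markers to 0.0745 to 0.379 CPM. The sum of the 5 dendritic cell markers went from 1.24 to 1.61 CPM in unexposed down to 0.273 to 0.480 CPM in exposed libraries, led by Zbtb46, which fell. The other 4 dendritic cell markers had 3 counts or fewer in each unexposed library, and of them Ccr7 and Siglech were highest with rIFNβ. The sum of the mast cell markers went from 0.954 to 1.44 CPM in unexposed down to 0.228 to 1.16 CPM in exposed libraries, led by Gata2, which fell. The other 4 had 3 counts or fewer in each unexposed library. Of them, Mcpt8 went the other way, from 0.00976 CPM (untreated) and 0.0168 CPM (eGFP supernatant) to 0.163 CPM (rIFNβ) and 0.0998 CPM (Ifnb1eGFP supernatant). Cpa3 and Ms4a2 were highest with rIFNβ, and Fcer1a went from 0 CPM in unexposed conditions to at most 0.0157 CPM. Fibroblast markers had higher sums than these lists, at 31.6 to 86.1 CPM in unexposed and 51.5 to 82.0 CPM in exposed libraries. By mean level they were led by Col1a2 in both unexposed and by Dcn in both exposed conditions. Their sums lay above the levels of Thbd, Serpinb2, F3 and F13a1. The mean levels of Dcn, Pdgfra and Lum were higher in both exposed conditions, and those of Col1a1 and Col3a1 lower. Dcn went from 9.92 CPM in untreated and 8.97 CPM in eGFP supernatant libraries to 25.3 CPM (rIFNβ) and 31.2 CPM (Ifnb1eGFP supernatant). Col1a1 went from 16.6 and 16.8 CPM to 7.9 and 8.24 CPM in the same order. The part of these cells and markers in the results was not tested. Platelet, endothelial, monocyte and neutrophil markers are given beside the genes they concern.

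**Figure D1:**
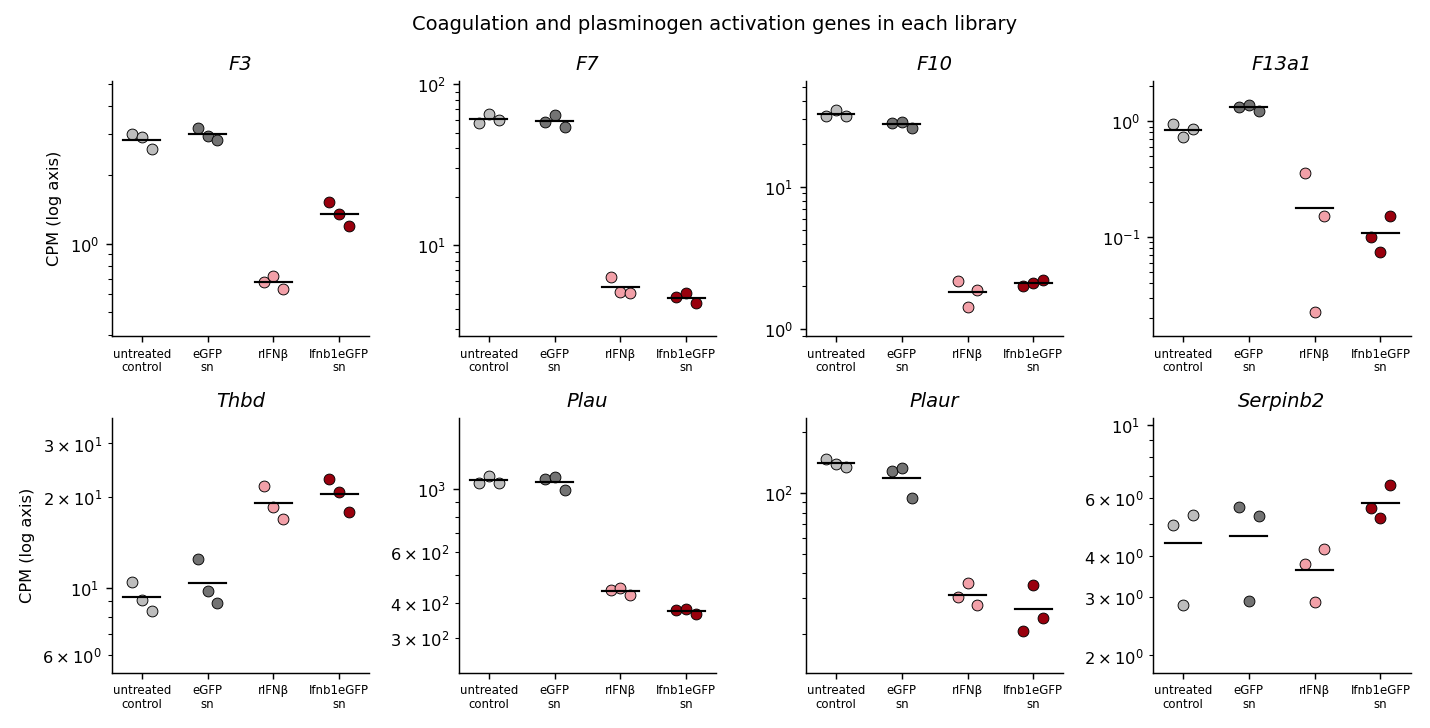
Level of each of the 8 genes in each library, as CPM on a log axis with its own range for each gene; each point is 1 library (3 per condition), the bar is the mean of the 3, and sn stands for supernatant. F7, F10, F13a1, F3, Plau and Plaur are lower and Thbd is higher in all 6 IFNβ-exposed libraries than in all 6 unexposed libraries, whereas exposed and unexposed libraries overlap for Serpinb2.

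Levels per length were compared between the genes as CPM per kilobase of merged exons. In untreated cells Plau stood first at 419 ± 13.4 (SD, n = 3). Plaur at 35.2 ± 1.74 and F7 at 32.2 ± 2.19 followed and lay within 2 SD of each other, and F10 reached 11.9 ± 0.672. Serpinb2 (1.54 ± 0.475) and Thbd (1.28 ± 0.144) did not differ beyond their spread, F3 reached 0.920 ± 0.0708, and F13a1 was lowest at 0.124 ± 0.0163. With Ifnb1eGFP supernatant Plau was at 145 ± 3.14 and Plaur at 6.65 ± 1.90, and Thbd at 2.80 ± 0.341 then lay beside F7 at 2.49 ± 0.179. F10 was at 0.771 ± 0.0351 and F3 at 0.436 ± 0.0521. The order of the first 2 genes was thus kept, while Thbd, below F7 and F10 in untreated cells, was level with F7 and above F10 with Ifnb1eGFP supernatant.

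The 2 comparisons of IFNβ were Ifnb1eGFP against eGFP supernatant (tumoral IFNβ) and rIFNβ against untreated control (recombinant IFNβ). They share no library. With a threshold of 0.05 on the adjusted p (quasi-likelihood test of edgeR, Benjamini-Hochberg adjustment over 15033 genes), 7 of the 8 members passed for tumoral IFNβ, where 55.1% of all genes passed, and 7 of 8 for recombinant IFNβ, where 55.3% passed. The 6 lower members stand against 25.0% and 24.6% of all genes that were lower, and the 1 higher member against 30.1% and 30.7% that were higher. The median log2 fold change of the 8 members was −1.83 and −2.11, against 0.03 and 0.04 over all genes tested. For these 7 members the 3 exposed and 3 unexposed libraries did not overlap in either comparison, against 26.6% and 29.7% of all genes that were lower and 32.4% and 36.4% that were higher without overlap. At the stricter threshold, a log2 change of 2 or more in size and an adjusted p up to 0.01, 4 members (F7, F10, F13a1 and Plaur) passed for tumoral IFNβ, against 5.39% of all genes. For recombinant IFNβ F3 passed as well, making 5 members against 5.77% of all genes. In these bulk samples a smaller number of cells of one kind and less RNA per cell cannot be told apart. For 1 gene, 3 libraries against 3 allow no exact permutation p below 0.1, so all p values are from the fit over all genes.

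**Figure D2:**
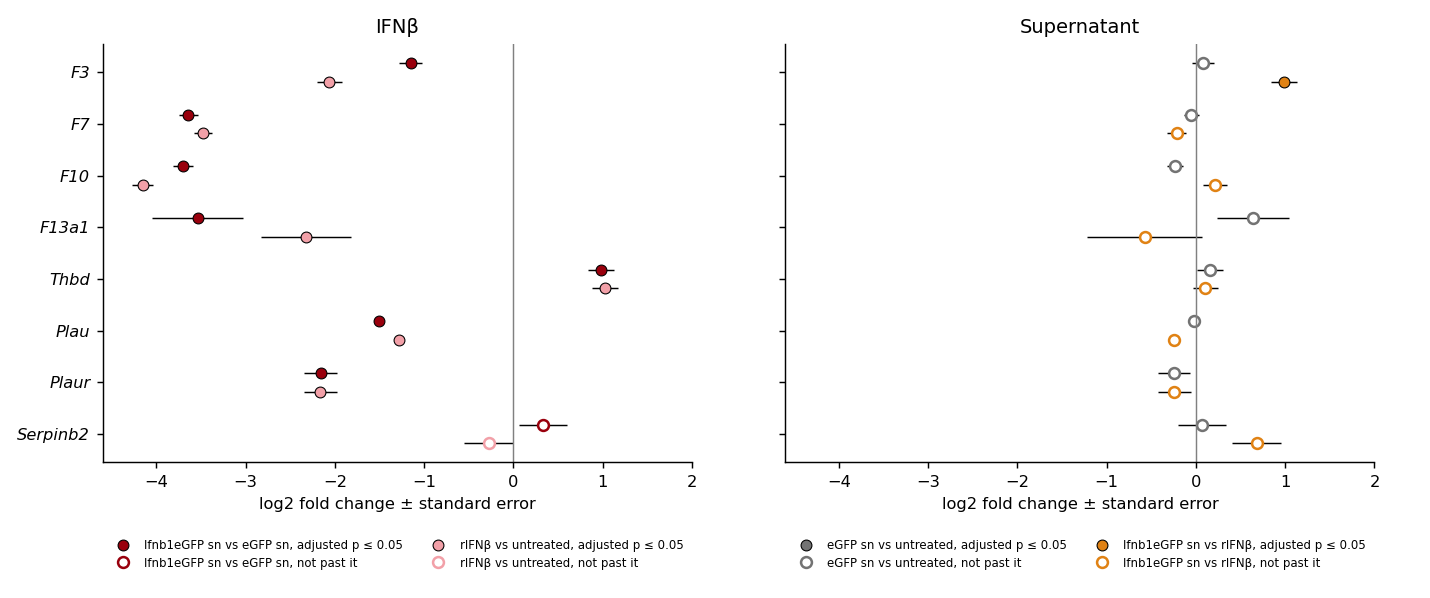
Log2 fold change of each gene (point) with its standard error (line) for the 2 IFNβ comparisons (left) and the 2 comparisons of supernatant (right); sn stands for supernatant, filled points passed an adjusted p of 0.05 and open points did not. F7 and F10 lie at −3.48 or lower on the left, Thbd is the only filled point above 0 there, and F3 is the only filled point on the right.

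F7, the protease that tissue factor binds, was at 57.3, 65.4 and 60.2 CPM in the untreated libraries and at 58.2, 64.4 and 53.9 CPM with eGFP supernatant. With Ifnb1eGFP supernatant it was at 4.73, 5.04 and 4.37 CPM, and with rIFNβ at 6.35, 5.08 and 5.05 CPM. Every exposed library was far below every unexposed one. F7 was 12.5-fold lower with tumoral IFNβ (log2 fold change −3.64, SE 0.105, adjusted p = 4.29e-10). It was 11.1-fold lower with recombinant IFNβ (log2 fold change −3.48, SE 0.104, adjusted p = 4.18e-10).

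F10 encodes factor X, the substrate of the factor VII complex. It was at 31.3, 34.7 and 31.6 CPM in untreated libraries and at 28.0, 28.7 and 26.1 CPM with eGFP supernatant. The exposed libraries were at 2.02, 2.11 and 2.22 CPM with Ifnb1eGFP supernatant and at 2.20, 1.44 and 1.90 CPM with rIFNβ. Again no exposed library reached an unexposed one. The log2 fold change was −3.70 with tumoral IFNβ (SE 0.112, adjusted p = 6.31e-10) and −4.15 with recombinant IFNβ (SE 0.115, adjusted p = 3.08e-10), the latter a 17.8-fold fall.

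Other genes around F7 and F10 were then examined, a choice made after their values were seen. Along chromosome 8 Mcf2l, F7, F10 and Proz lie in this order and were all lower with IFNβ. Between Mcf2l and F7 lie 5096 bases, and between F10 and Proz 3899. Mcf2l, which encodes a guanine nucleotide exchange factor, was at 17.3 ± 2.11 CPM with eGFP and 1.73 ± 0.477 CPM with Ifnb1eGFP supernatant (SD, n = 3; log2 fold change −3.32, SE 0.198, adjusted p = 8.57e-08 by edgeR). Its log2 fold change with recombinant IFNβ was −3.30 (SE 0.198, adjusted p = 7.89e-08). Proz, which encodes protein Z, the cofactor of an inhibitor of activated factor X, fell less, by 1.15 (SE 0.136) and 1.68 (SE 0.139) on the log2 scale. The flanking genes changed less. On the side of Mcf2l, Atp11a had log2 fold changes of −0.30 and −0.43, and on the side of Proz, Pcid2 had −0.50 and −0.37 and Cul4a −0.27 and −0.35. The adjusted p of these flanking genes were between 3.96e-06 and 0.00227 by edgeR. Each of the 7 genes named here was thus lower in both comparisons, where 25.0% and 24.6% of all genes were. They include F7 and F10 and were chosen with their values known, so this count is a description and not a test. Whether reads running from one gene into the next contributed to these counts was not tested.

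**Figure D3:**
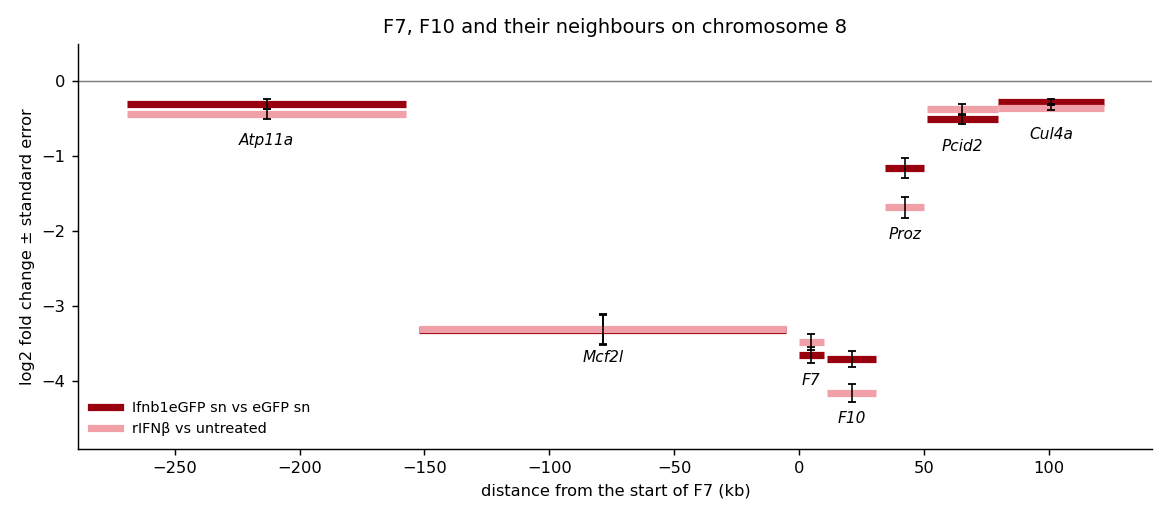
Log2 fold change (vertical axis, with its standard error) of F7, F10 and the genes next to them, each drawn as a bar over its length at its distance in kb from the start of F7; dark red is tumoral and pink recombinant IFNβ, and the bars of Mcf2l lie on each other. Mcf2l, F7 and F10 lie below −3.2, Proz at −1.15 and −1.68, and the flanking Atp11a, Pcid2 and Cul4a between −0.50 and −0.27.

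F3, tissue factor, was expressed at a low level. It was at 3.02, 2.93 and 2.60 CPM in untreated libraries (95 to 110 counts) and at 3.21, 2.95 and 2.84 CPM with eGFP supernatant. With Ifnb1eGFP supernatant it was at 1.52, 1.34 and 1.19 CPM and with rIFNβ at 0.682, 0.720 and 0.632 CPM (23 to 32 counts). The 3 levels did not overlap: both unexposed conditions lay highest, Ifnb1eGFP supernatant in between and rIFNβ lowest. F3 fell 2.22-fold with tumoral IFNβ (log2 fold change −1.15, SE 0.129, adjusted p = 1.48e-05) and 4.18-fold with recombinant IFNβ (−2.06, SE 0.140, adjusted p = 2.19e-07).

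F13a1, the A chain of factor XIII, was the scarcest member. It had 30, 25 and 36 counts in untreated libraries and 53, 57 and 49 counts with eGFP supernatant. It had 4, 3 and 7 counts with Ifnb1eGFP supernatant and 12, 1 and 6 counts with rIFNβ. All exposed libraries were lower, and those with rIFNβ were widely spread. The log2 fold change was −3.54 (SE 0.514, adjusted p = 0.000119) with tumoral and −2.32 (SE 0.507, adjusted p = 0.0022) with recombinant IFNβ. The latter rested in size on single libraries, since it was −3.28 (adjusted p = 0.000258) without rIFNβ replicate 1 and −1.75 (adjusted p = 0.00199) without rIFNβ replicate 2. F13a1 is also known from monocytes and platelets. The 4 monocyte markers summed to 9.88 to 12.6 CPM in unexposed and 1.07 to 2.22 CPM in exposed libraries, led by Ccr2 throughout, whereas Ly6c2 was at 3 counts or fewer in each unexposed library and at 0.165 (rIFNβ) and 0.210 CPM (Ifnb1eGFP supernatant) on average in exposed ones. The 7 neutrophil markers summed to 4.35 to 5.88 CPM in unexposed and 0.267 to 1.06 CPM in exposed libraries. S100a8 led, at 5.03 (untreated), 4.49 (eGFP supernatant), 0.272 (rIFNβ) and 0.439 CPM (Ifnb1eGFP supernatant). In each unexposed condition 5 of the 7 had 3 counts or fewer in each library. Mpo went the other way, from 0 in both unexposed conditions to 0.104 (rIFNβ) and 0.0145 CPM (Ifnb1eGFP supernatant). S100a9 and Ly6g were at or near 0 in unexposed libraries and highest with rIFNβ (0.0655 and 0.0427 CPM). The 7 platelet markers summed to 1.49 to 3.14 CPM in unexposed and 1.28 to 2.80 CPM in exposed libraries, led by Gp1ba, with Gp9 and Gp1bb at or near 0. The part of these cells in the F13a1 result was not tested.

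Thbd, the thrombin receptor of the anticoagulant branch, was the member that rose. It was at 10.5, 9.13 and 8.37 CPM in the untreated libraries and at 12.4, 9.75 and 8.91 CPM with eGFP supernatant. It was at 22.8, 20.7 and 17.8 CPM with Ifnb1eGFP supernatant and at 21.7, 18.5 and 16.9 CPM with rIFNβ. The lowest exposed library was above the highest unexposed one, and in each condition replicate 1 was the highest and replicate 3 the lowest. The rise was 1.97-fold with tumoral IFNβ (log2 fold change 0.98, SE 0.142, adjusted p = 0.000118) and 2.04-fold with recombinant IFNβ (1.03, SE 0.145, adjusted p = 8.89e-05). Thbd is a known gene of endothelial cells, whose 6 markers summed to 1.58 to 2.10 CPM in unexposed and 5.71 to 6.67 CPM in exposed libraries. That sum was led by Kdr (0.578 CPM untreated, 3.56 CPM with Ifnb1eGFP supernatant). The mean levels of Pecam1 and Cdh5 were also higher in both exposed conditions. Pecam1 was at 0.555 and 0.716 CPM in untreated and eGFP supernatant libraries, against 2.01 (Ifnb1eGFP supernatant) and 1.74 (rIFNβ). Cdh5 was at 0.338 and 0.306 CPM, against 0.58 and 0.578, in the same order. Tie1 went the other way. It was at 0.278 CPM in untreated and 0.257 CPM in eGFP supernatant libraries, against 0.0839 (Ifnb1eGFP supernatant) and 0.0804 (rIFNβ). Tek and Emcn were at 3 counts or fewer in each library, with Emcn at 0 in both unexposed conditions. The part of such cells in the Thbd result was not tested.

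Plau, urokinase, was the most abundant member. It was at 1054, 1114 and 1055 CPM in untreated libraries and at 1084, 1103 and 997 CPM with eGFP supernatant, and thus overlapped between these conditions. It was at 376, 379 and 363 CPM with Ifnb1eGFP supernatant and at 443, 452 and 426 CPM with rIFNβ, all below the unexposed libraries. The fall was 2.85-fold with tumoral IFNβ (log2 fold change −1.51, SE 0.0490, adjusted p = 9.04e-10) and 2.44-fold with recombinant IFNβ (−1.29, SE 0.0487, adjusted p = 2.2e-09). With 14865 to 45266 counts per library this was the member with the smallest standard error.

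Plaur, the receptor that holds urokinase at the cell surface, fell further than its ligand. It was at 148, 139 and 134 CPM in untreated libraries and at 129, 133 and 94.8 CPM with eGFP supernatant. It was at 20.6, 35.1 and 24.0 CPM with Ifnb1eGFP supernatant and at 30.4, 35.8 and 27.8 CPM with rIFNβ. No exposed library reached an unexposed one, although eGFP replicate 3 and Ifnb1eGFP replicate 2 stood apart from the others of their condition. Plaur was 4.47-fold lower with tumoral IFNβ (log2 fold change −2.16, SE 0.187, adjusted p = 1.84e-06) and 4.48-fold lower with recombinant IFNβ (−2.16, SE 0.187, adjusted p = 1.62e-06). The difference between the falls of Plaur and Plau was not tested.

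Serpinb2, the inhibitor of urokinase, did not pass the test for IFNβ. It was at 4.99, 2.84 and 5.32 CPM in untreated libraries, at 5.63, 2.92 and 5.30 CPM with eGFP supernatant, at 5.61, 5.24 and 6.58 CPM with Ifnb1eGFP supernatant and at 3.80, 2.90 and 4.22 CPM with rIFNβ. Replicate 2 was lowest in every condition, and the conditions of each IFNβ comparison overlapped. The log2 fold change was 0.33 with tumoral IFNβ (adjusted p = 0.312, interval of 2 SE −0.198 to 0.866) and −0.28 with recombinant IFNβ (adjusted p = 0.428, interval −0.827 to 0.276). Changes inside these intervals are not excluded.

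Supernatant itself was examined next, by comparing Ifnb1eGFP supernatant with rIFNβ, which were set to the same concentration of IFNβ, and eGFP supernatant with untreated control. In the first of these the IFNβ also differed in source, tumor cells or recombinant, so source and supernatant cannot be told apart. F3 was the single member called in that comparison, in which 0.160% of all genes passed. Its 3 libraries with Ifnb1eGFP supernatant lay above the 3 with rIFNβ, 1.98-fold on average (log2 fold change 0.99, SE 0.144, adjusted p = 0.0248 by edgeR). With a block for the replicate number the adjusted p was 0.0141. The call depended on the fit. It was lost when only the compared conditions were fitted (adjusted p = 0.386) and without any 1 of the rIFNβ libraries (0.107 to 0.141). It was also lost without Ifnb1eGFP replicate 1 (0.0688) or replicate 3 (0.0506) and without eGFP replicate 2 (0.0522) or replicate 3 (0.0501). The log2 fold change itself stayed between 0.90 and 1.07 in all of these. DESeq2 gave 1.00 (SE 0.240) and no adjusted p for F3 in this comparison.

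The other 7 members were not called between Ifnb1eGFP supernatant and rIFNβ. Plau was lower in all 3 libraries with Ifnb1eGFP supernatant by a small amount (log2 fold change −0.24, SE 0.0480, adjusted p = 0.115 by edgeR). It passed with the replicate number as a block (adjusted p = 0.0273), without Ifnb1eGFP replicate 2 (0.0337) and in DESeq2 (0.000202). F7 was lower in all 3 libraries with Ifnb1eGFP supernatant (−0.22, adjusted p = 0.603) and Serpinb2 higher (0.68, adjusted p = 0.569), where 4.58% of all genes were lower and 8.22% higher without overlap. F10 (0.22), F13a1 (−0.57), Thbd (0.11) and Plaur (−0.24) overlapped between the conditions.

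Between eGFP supernatant and untreated control 0 of the 8 members passed in edgeR, where 0.299% of all genes did. Before adjustment 1 member, F10, was under 0.05 (log2 fold change −0.24, adjusted p = 0.521 by edgeR), where 8.0% of all genes were. F3 differed by 0.07 (interval of 2 SE −0.172 to 0.322) and Plau by −0.02 (−0.114 to 0.0781). F13a1 was higher in all 3 eGFP supernatant libraries (0.64, adjusted p = 0.806), and F10 and Plaur were lower in all 3, where 7.96% of all genes were higher and 7.52% lower without overlap. Averaged over both IFNβ states, F3 was higher with supernatant (log2 difference 0.53, SE 0.0949, adjusted p = 0.0308), the single member called where 0.905% of all genes were. This call was lost without any 1 library of the untreated, eGFP supernatant or rIFNβ conditions (adjusted p = 0.055 to 0.0909). It was kept without any 1 Ifnb1eGFP supernatant library (0.0316 to 0.0482). The average includes Ifnb1eGFP supernatant against rIFNβ, and with it the difference in the source of IFNβ.

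The difference between the 2 IFNβ effects was tested as an interaction, for which 0 of 15033 genes passed in edgeR and 661 (4.40%) had an unadjusted p under 0.05. DESeq2 called 9 genes, 0 of them members. F3 had the smallest p of the members (log2 difference 0.91, SE 0.190, adjusted p = 0.67 by edgeR), its fall being smaller with tumoral than with recombinant IFNβ. The differences were −0.22 for Plau and 0.45 for F10 (adjusted p = 0.926 for both), and none was established.

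A wider list of 48 coagulation and fibrinolysis genes was then examined, of which 32 passed the filter on low counts. The genes not tested had at most 6 counts in any library and included prothrombin (F2), plasminogen (Plg), protein C (Proc) and the 3 fibrinogen chains. Of the 32 genes, 4 were higher, 19 lower and 9 not called with tumoral IFNβ, with a median log2 fold change of −0.45. With recombinant IFNβ 4 were higher, 21 lower and 7 not called, with a median of −0.55. The medians over all genes tested were 0.03 and 0.04. Of all genes tested, 30.1% were higher and 25.0% lower with tumoral IFNβ, 55.1% in either direction. With recombinant IFNβ 30.7% were higher and 24.6% lower, 55.3% in either direction. The counts of the groups below stand against the same shares, and the groups were not tested as sets.

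**Figure D4:**
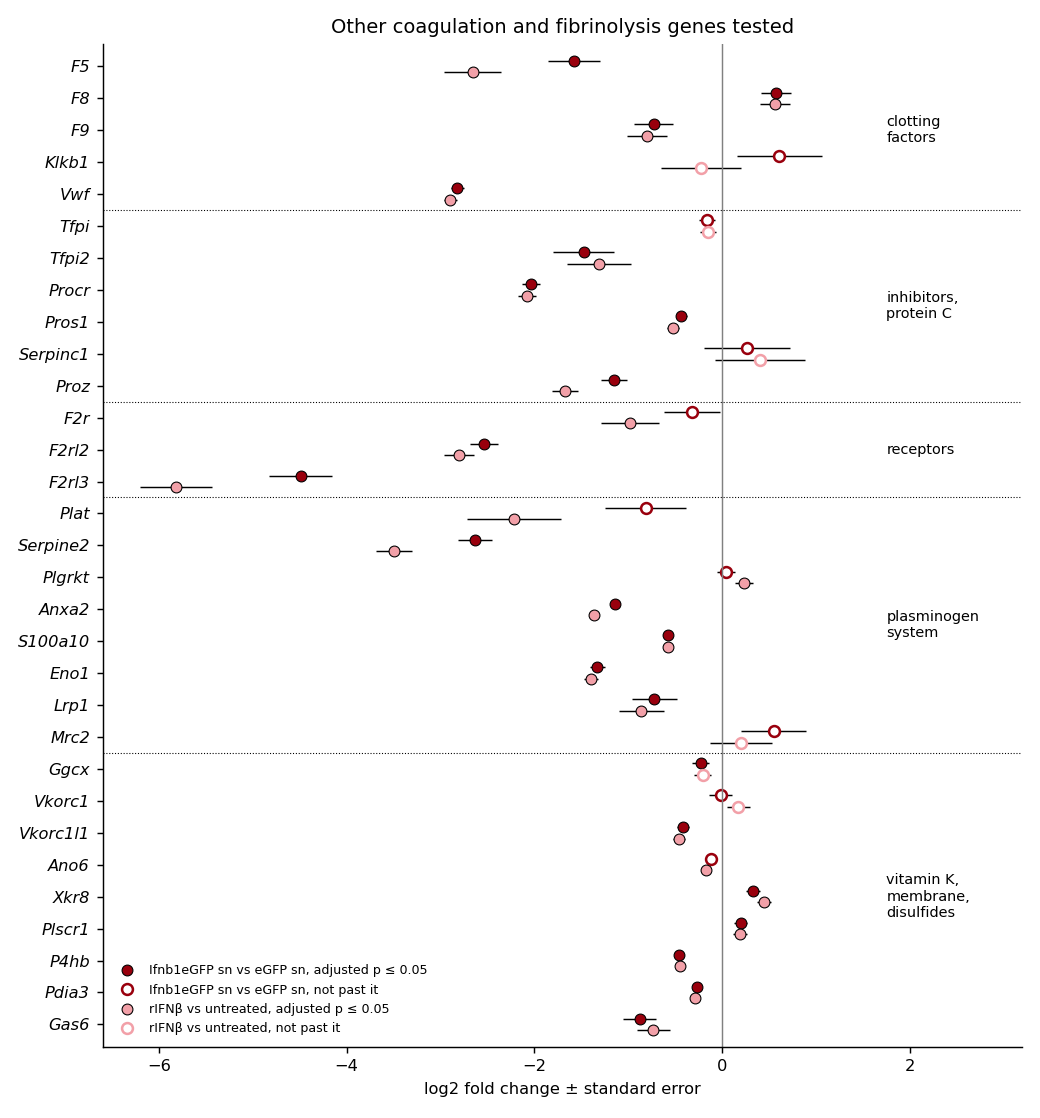
Log2 fold change (horizontal axis, with its standard error) of 31 of the 32 tested genes of the wider list for tumoral (dark red) and recombinant (pink) IFNβ, ordered by role; sn stands for supernatant and open points did not pass an adjusted p of 0.05. Most filled points lie below 0, and F8, Xkr8 and Plscr1 are the genes with filled points above 0 in both comparisons; the position of F2rl3 rests on 1 to 9 counts in the exposed libraries.

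Among the 13 clotting factors of the list 5 were tested, 3 of them lower and 1 higher in both comparisons. Vwf, von Willebrand factor, which carries factor VIII and binds platelets, was at 175 ± 4.74 CPM with eGFP and 24.7 ± 2.20 CPM with Ifnb1eGFP supernatant (SD, n = 3), and at 210 ± 7.59 CPM in untreated and 28.2 ± 1.67 CPM in rIFNβ libraries. It fell 7.07-fold (adjusted p = 1.62e-10) and 7.45-fold (adjusted p = 1.23e-10). Vwf was also the 1 gene of the list called for supernatant averaged over both IFNβ states (log2 difference −0.23, SE 0.0460, adjusted p = 0.0475). F5, the cofactor of activated factor X, fell from 1.26 ± 0.159 to 0.417 ± 0.0767 CPM with tumoral IFNβ (log2 fold change −1.58, adjusted p = 0.000517) and by 2.66 on the log2 scale with recombinant IFNβ (adjusted p = 1.76e-05). F8, the cofactor of factor IX, was higher in both (0.58 and 0.57).

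Of the 10 inhibitors and protein C pathway genes 6 were tested, and 4 were lower in both comparisons. Procr, the endothelial protein C receptor, which presents protein C to the complex of thrombin and thrombomodulin, fell 4.10-fold with tumoral IFNβ (47.0 ± 2.66 to 11.5 ± 1.26 CPM, adjusted p = 1.11e-08) and 4.23-fold with recombinant IFNβ (adjusted p = 8.72e-09). Thbd and Procr, which act in the same activation step, thus changed in opposite directions. Tfpi2, a protease inhibitor of the matrix, fell by 1.47 and 1.31 on the log2 scale from below 1 CPM. Tfpi, the inhibitor of the complex of tissue factor and factor VII, was not called (−0.17, adjusted p = 0.124, and −0.15, adjusted p = 0.162).

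The 3 tested protease-activated receptors were lower with recombinant IFNβ, and 2 of them, F2rl2 and F2rl3, also with tumoral IFNβ. F2rl2 (PAR3) was at 13.3 ± 0.825 CPM with eGFP and 2.28 ± 0.311 CPM with Ifnb1eGFP supernatant, 5.80-fold lower (adjusted p = 9.93e-08), and 6.97-fold lower with rIFNβ (adjusted p = 4.88e-08). F2rl3 (PAR4), a receptor through which thrombin signals, had 121 to 130 counts with eGFP and 1 to 9 counts with Ifnb1eGFP supernatant (adjusted p = 5.2e-07). It had 99 to 144 counts in untreated and 2 to 3 counts in rIFNβ libraries (adjusted p = 1.71e-07), too few for a fold change.

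In the plasminogen system 9 of 12 genes were tested. With tumoral IFNβ 5 were lower and 1 higher, and with recombinant IFNβ 6 were lower and 1 higher. Plgrkt was the gene higher with recombinant IFNβ (log2 fold change 0.23, adjusted p = 0.0495 by edgeR). It was not called with tumoral IFNβ (0.04, adjusted p = 0.721). Anxa2, a cell surface receptor for plasminogen together with S100a10, fell from 1339 ± 27.2 to 608 ± 12.3 CPM with tumoral IFNβ (2.20-fold, adjusted p = 1.97e-09) and 2.58-fold with recombinant IFNβ (adjusted p = 4.34e-10). Eno1, a glycolytic enzyme that also binds plasminogen at the cell surface, fell 2.51-fold and 2.63-fold, although its reads can be shared with near-identical copies in the genome. Serpine2 (protease nexin 1), an inhibitor of thrombin and urokinase, fell 6.22-fold (16.8 ± 1.78 to 2.68 ± 0.743 CPM, adjusted p = 2.98e-07) and 11.3-fold (adjusted p = 3.67e-08). Vwf, F5, Procr, Proz, Tfpi2, F2rl2, F2rl3, Anxa2, Eno1 and Serpine2 were named by the rule of a call and a log2 change of 1 or more in size in both comparisons. The other genes of the list were named after their values were seen.

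In the group of the vitamin K cycle, phospholipid exposure and disulfide exchange all 9 genes were tested, and 5 were lower and 2 higher in each comparison. The 2 that rose were Xkr8 (0.33 and 0.45) and Plscr1 (0.20 and 0.19), which encode membrane proteins linked to the movement of phosphatidylserine to the cell surface, where clotting factors bind. Ano6, listed for phospholipid exposure as well, went the other way. It was lower with recombinant IFNβ (−0.18, adjusted p = 0.0104 by edgeR) and not called with tumoral IFNβ (−0.12, adjusted p = 0.0613). All changes of this group were below 1 on the log2 scale.

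For each member the 2 genes with the closest pattern of log2 CPM over the 12 libraries were named as a description. They were Tatdn2 and Scamp1 for F3, Col24a1 and Pccb for F7, Klf9 and Rpn1 for F10, Cfap161 and Itgal for F13a1, Lysmd3 and Kdm2a for Thbd, Dapk1 and Qpct for Plau, and Elovl1 and 5031439G07Rik for Plaur. Pearson r across the 12 libraries was between 0.971 and 0.999 for these pairs, and the libraries fall into exposed and unexposed ones, a split that these genes follow. For Serpinb2 the closest were Has2 (r = 0.873) and Sulf1 (r = 0.848), so no gene followed its levels as closely.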

How the data were processed

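Bulk RNA of 12 BMDM libraries was sequenced by the authors (TruSeq Stranded Total RNA). The submitters' processing notes name RSEM 1.3.3 and DESeq2, and the authors deposited the RSEM expected counts per Ensembl gene, not normalized. The reference is named GRCm39 mm10, which joins 2 builds, and gene positions and symbols here are those of GENCODE M39 (GRCm39), which holds 56017 of the 56748 listed genes. Of the values, 12.0% were not whole, and all were rounded. Totals were 31526004 to 45348410 rounded counts per library, and a count of 3 in each library was taken as the floor of a group. Conditions and replicate numbers came from the sample labels.

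Genes were filtered by filterByExpr (15033 tested), scaled by TMM factors and fitted in 1 quasi-likelihood model over the 12 libraries (edgeR 4.0.16, R 4.3.3), with Benjamini-Hochberg adjustment over all genes tested and a call at an adjusted p up to 0.05. The SE of a log2 fold change was approximated by dividing it by the root of F. Log2 CPM, used for the closest patterns and the correlations of same-numbered libraries, had a prior count of 2. The log2 fold changes are those of the fit and did not use that prior. The fit was tested on simulated data. The p values set the difference between conditions against the spread between the libraries. The 8 genes, the wider list, the markers and the named genes (all 8 members; list genes with a log2 change of 1 or more in size and a call in both IFNβ comparisons, or a call for averaged supernatant) were chosen with earlier results of these data known. The values of 1 gene of the wider list are not reported here, although it is included in the counts. Promoter windows came from RefSeq (GRCm38.p6).

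Alternatives were DESeq2 1.42.0, RLE factors, a block for the replicate number, all genes left unfiltered, only the compared conditions, a stricter threshold and each library left out in turn. Values with the block stand beside a result only where every same-numbered pair of deviations from the group means correlated above 0.1, which among the comparisons made held for Ifnb1eGFP supernatant against rIFNβ (r = 0.167, 0.246 and 0.207), and the calls are those without the block; the sources do not say what the number stands for.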

Additional observations from a re-analysis of the deposited data

How the results depend on the processing

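The 7 calls in each IFNβ comparison were kept under DESeq2, RLE factors, a replicate block, no filtering of low counts, only the compared conditions and each library left out, and fell to 4 for tumoral IFNβ at the stricter threshold (log2 change of 2 or more in size, adjusted p up to 0.01). Comparisons of supernatant were less stable. For Ifnb1eGFP supernatant against rIFNβ the 1 member called became 2 with the replicate block, 0 with only the compared conditions or the stricter threshold, and 0 to 2 with a library left out. For averaged supernatant it became 2 with the block, 0 without the filter on low counts or at the stricter threshold, and 0 to 1 with a library left out. DESeq2 also called 1 member in each, Plau (adjusted p = 0.00796 for averaged supernatant), and gave F3 no adjusted p in either (log2 difference 0.54, SE 0.15, for averaged supernatant). In the wider list eGFP supernatant against untreated control went from 0 genes to 2 in DESeq2, 1 with the block and 0 to 1 with a library left out, and averaged supernatant from 1 to between 0 and 1 with a library left out.

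Over all genes, Ifnb1eGFP supernatant against rIFNβ gave 24 calls, 115 in DESeq2, 41 without the filter, 48 with the block, 2 with only the compared conditions, and 4 to 1051 with a library left out, the 1051 being without Ifnb1eGFP replicate 2. eGFP supernatant against untreated control gave 45 calls, 204, 75, 122 and 22 in the same order, and 16 to 76 with a library left out (16 without eGFP replicate 2). Averaged supernatant gave 136, 349 in DESeq2, 252 with the block and 55 to 531 (531 without Ifnb1eGFP replicate 2). The interaction gave 0, 9 in DESeq2 and 1 without the filter. The causes were not tested.

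Without the filter on low counts 3 small, uncalled values changed sign: Plau in eGFP supernatant against untreated control (0.0129), F10 in averaged supernatant (0.00914) and Plaur in the interaction (−0.0230). With a library left out, 25 of 576 values changed sign, all of them uncalled. These were values of F7 (−0.12 to 0.0084), Plau (−0.0462 to 0.0252) and Serpinb2 (−0.16 to 0.31) in eGFP supernatant against untreated control, of F13a1 in Ifnb1eGFP supernatant against rIFNβ (−1.14 to 0.38), of F10 (−0.0900 to 0.0576) and F13a1 (−0.25 to 0.51) in averaged supernatant, and of Plaur (−0.25 to 0.16) and Thbd (−0.15 to 0.10) in the interaction.

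Same-numbered libraries of all conditions deviated together with a mean r of 0.148 (0.0582 to 0.252 over 18 pairs, 13 of them over 0.1), and 12 of 12 libraries correlated best with their own number. The block changed the calls given above and of Plau in averaged supernatant (adjusted p = 0.0378). Depth limits F13a1 (1 to 57 counts per library) and F3 (23 to 127).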
